A study of Mus musculus with 4 samples.

Results

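In sorted macrophage samples from BMP4-overexpressing tumours, 31 of the genes with higher levels stood at about the same level in both libraries. Levels are shares of the gene counts of a library, and these 31 genes are described here. They were selected on measured values. A gene was taken as raised where at least 1 MycCaP library reached 1 count in 1000000 gene counts (CPM), both MycCaP-BMP4 libraries reached 10 CPM, and both held at least 2 times the higher MycCaP value. A raised gene was kept as a member where MycCaP-BMP4 replicate 1 lay between 50% below and 25% above replicate 2. The files listed 39179 gene identifiers, of which 14075 passed a filter on low counts and 320 were raised, so the members were 9.69% of the raised genes. All 31 members passed the filter on low counts. Because the same 4 libraries chose the members, their levels and fold changes are a description of these libraries and carry no test.

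The RNA came from tumour-associated macrophages (TAMs) of tumours grown under the skin of FVB mice. One group of 2 libraries came from tumours of MycCaP cells, a mouse prostate cancer line, and the other group of 2 from tumours of MycCaP-BMP4 cells, the same line made to overexpress BMP4. All 4 samples were labelled as macrophages sorted for CD45, CD11b and F4/80 and against GR1, but F4/80 is named in the titles of the MycCaP-BMP4 samples alone. It is not stated in the labels whether the 2 samples of a group came from separate mice, whether tumours were pooled, whether the BMP4 line was 1 clone, or how old the mice were, so the spread between replicates may be technical. By the labels, the line that overexpresses BMP4 is the tumour line.

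Bone morphogenetic protein 4 is a secreted ligand of the TGF-beta family that binds paired serine/threonine kinase receptors and passes its signal to SMAD transcription factors, which enter the nucleus and change transcription. TAMs are the macrophages of a tumour, where they take up debris and iron, remodel matrix and release growth factors and cytokines. A sorted sample can also hold RNA of tumour cells, stromal cells and other leukocytes, whose genes then appear beside those of the macrophages.

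The gene counts summed to 24967143 and 24385036 in the MycCaP libraries and to 24313328 and 23058263 in the MycCaP-BMP4 libraries, given throughout for replicate 1 first and replicate 2 second. A floor of 3 counts corresponds to 0.120 to 0.130 CPM. The defining macrophage markers were present in all libraries but not equally. Csf1r, the receptor for macrophage colony-stimulating factor, stood at 1681 and 2009 CPM in the MycCaP pair against 481 and 1513 CPM in the MycCaP-BMP4 pair. The median level of 15 macrophage genes relative to the MycCaP mean was 104% and 95.9% in the MycCaP libraries and 23.5% and 77.6% in the MycCaP-BMP4 libraries. In such bulk samples, fewer macrophages and less RNA per macrophage cannot be told apart. Genes of a tumour epithelium list summed to 532 and 611 CPM in the MycCaP pair against 2248 and 805 CPM in the MycCaP-BMP4 pair. Of the list's 22 tested genes, 14 were above both MycCaP libraries, 4 below and 4 overlapping. Over all 14075 tested genes, 34.4% were above and 23% below. Cldn3 was above, at 23.6 and 26.8 against 408 and 124 CPM. Krt8 overlapped at 15.2 and 18.8 against 35.0 and 14.7 CPM, and Epcam at 0.280 and 0.246 against 0 and 0.607 CPM. Krt18 stood at or below 0.130 CPM in all libraries. The part of this list's genes in the results below was not tested. Bmp4 stood at 0.160 and 0.0410 CPM in the MycCaP pair against 581 and 179 CPM in the MycCaP-BMP4 pair.

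Equal levels in the MycCaP-BMP4 pair were uncommon among raised genes. Of the 320 raised genes, 289 were more than 25% higher in replicate 1 than in replicate 2, and 0 were more than 50% lower. The median ratio of replicate 1 to replicate 2 over the raised genes was 2.45, with a range of 0.629 to 3.89, and 226 of them had a ratio above 2. Over the members the median ratio was 1.11, with 21 members higher in replicate 1, 10 higher in replicate 2 and 9 within 10% between the replicates. For comparison, the median was 1.17 over all 8453 tested genes with at least 10 CPM in both MycCaP-BMP4 libraries, and 47.0% of those genes lay inside the ratio range. The MycCaP replicates were also close for most members, within 1.5 times in 25 of 31. The exceptions were Tpsab1, mt-Nd4, mt-Nd2, Ighg1 and Mras, lower in MycCaP replicate 1, and Gm26532, higher there.

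**Figure D1:**
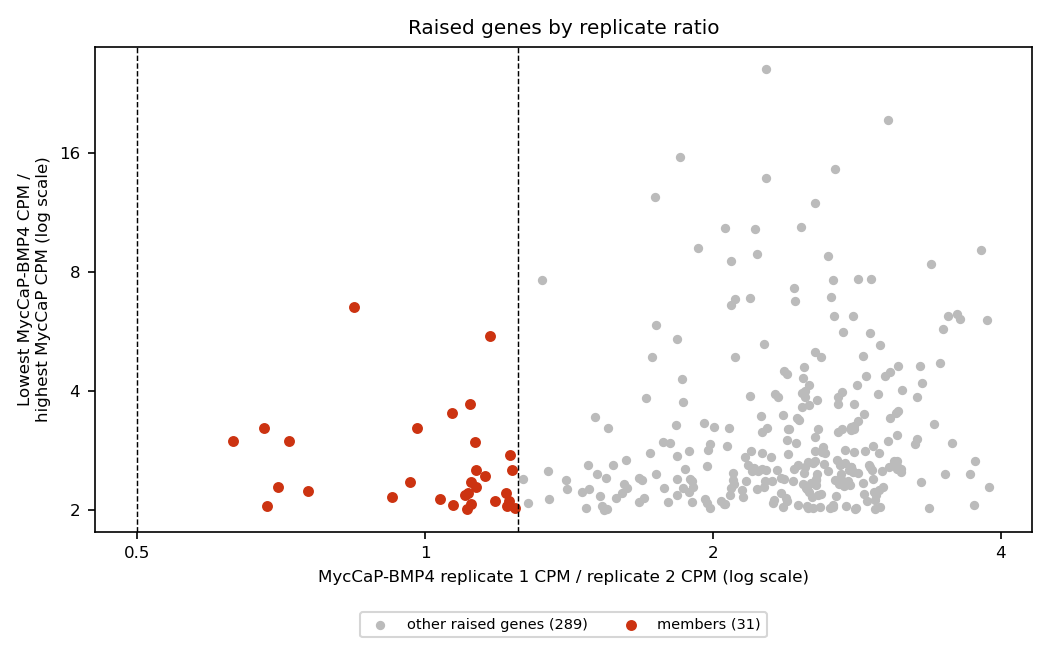
Each point is a raised gene. The horizontal axis is the CPM of MycCaP-BMP4 replicate 1 over that of replicate 2 and the vertical axis is the lower MycCaP-BMP4 CPM over the higher MycCaP CPM, both on log scales. The 31 members lie between the dashed limits of the rule, and the 289 other raised genes all lie to the right of them.

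The smallest of the 4 possible MycCaP-BMP4 to MycCaP ratios, called here the lowest fold, had a median of 2.28 over the members and a range of 2.01 to 6.50. It was at least 3 in 6 members, from 2.5 to under 3 in another 6, and under 2.5 in 19. Its median was 2.61 over the 289 other raised genes. The ratio of group means ranged from 2.17 to 8.08 over the members, with a median of 2.93. Across the 14075 tested genes, 6.93% had both MycCaP-BMP4 libraries at 2 times the higher MycCaP value or more, 34.4% had both above both MycCaP libraries and 23% had both below. With the trimmed-mean (TMM) factors of edgeR, which scale libraries on the bulk of the genes, these last shares were 28.9% above and 29.7% below. The rule fixes that all 31 members lie above both MycCaP libraries, and the TMM factors are too close to each other to change that. With them, 18 members kept a lowest fold of 2.

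A model of the counts across all genes (edgeR quasi-likelihood test, Benjamini-Hochberg adjusted p under 0.05) called 0 of the 14075 genes, 0%, so no member was among the called genes. At an unadjusted p under 0.05 it passed 2680 genes, 1729 higher and 951 lower in MycCaP-BMP4 TAMs. DESeq2 called 1385 genes and limma-voom 0. The fitted log2 fold change (MycCaP-BMP4 over MycCaP) ranged from 0.95 to 2.85 over the members with a median of 1.39, beside a median of −0.03 over all genes tested.

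**Figure D2:**
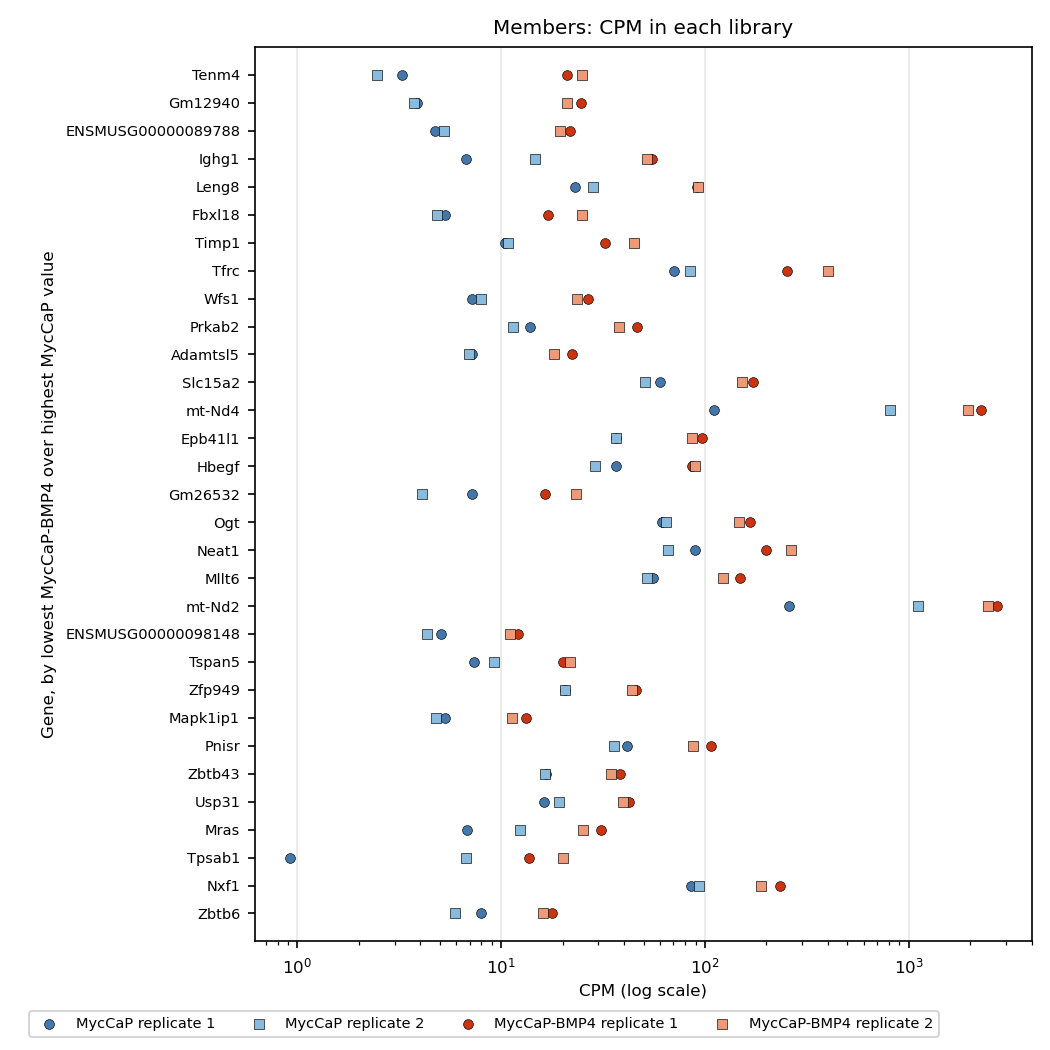
Level of each member in CPM (log axis) in the 4 libraries, with the members ordered from the highest lowest fold at the top to the lowest at the bottom. The red and orange MycCaP-BMP4 points lie close together and to the right of both blue MycCaP points in every row, as the rule requires, while the MycCaP points are far apart for mt-Nd4, mt-Nd2, Ighg1 and Tpsab1.

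The secreted and surface proteins among the members were Tenm4, Timp1, Adamtsl5, Hbegf, Tfrc and Slc15a2. Tenm4, a large transmembrane teneurin best known for cell adhesion and for guiding connections between neurons, had the widest separation of all members. It stood at 3.24 and 2.46 CPM in the MycCaP pair against 21.1 and 25.02 CPM in the MycCaP-BMP4 pair, a ratio of means of 8.08 (log2 fold change 2.85, SE 0.39). Its other family members Tenm1, Tenm2 and Tenm3 were at or below 0.0434 CPM in all libraries, which is under the 3-count limit. Tenm4 spans GRCm38 chromosome 7 from 96171246 to 96911093 on the forward strand. Per kilobase of exon its level was nevertheless the lowest of the 29 members with a known length, at 1.00 and 1.19 CPM per kb in the MycCaP-BMP4 libraries.

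Tfrc, the transferrin receptor through which cells take up iron, was among the most abundant members per kilobase. Its level was 70.1 and 84.3 CPM in the MycCaP pair against 251 and 399.6 CPM in the MycCaP-BMP4 pair. Of the members it leaned most to replicate 2, with a replicate ratio of 0.629, the lowest ratio among all raised genes. The other genes of iron uptake and storage did not share this pattern. Of the 6 others tested, 0 had both MycCaP-BMP4 libraries above both MycCaP libraries and 3 had both below. The shares over all tested genes were 34.4% above and 23% below. The median level of 15 macrophage genes was also lower, at 23.5% and 77.6% of the MycCaP mean. Its part in the levels of the iron genes was not tested. The iron exporter Slc40a1 stood at 243 and 278 CPM against 44.5 and 63.5 CPM, and the ferritin heavy chain gene Fth1 at 7965 and 6194 CPM against 1964 and 4297 CPM. Slc11a2, which carries iron out of endosomes after transferrin uptake, overlapped between the groups at 44.5 and 42.6 against 40.0 and 78.7 CPM. So did the iron regulatory protein genes Ireb2 and Aco1, which encode proteins that bind and stabilise Tfrc RNA when iron is low: Aco1 stood at 52.3 and 68.1 against 59.6 and 73.7 CPM.

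Timp1, a secreted inhibitor of matrix metalloproteinases, was at 10.5 and 10.7 CPM in the MycCaP pair against 32.2 and 44.6 CPM in the MycCaP-BMP4 pair. The groups were well apart and replicate 2 was the higher. Timp2, from the same family, was far more abundant at 624 and 606 against 473 and 958 CPM, and its groups overlapped. The Timp1 gene lies over Syn1 on the opposite strand, and Syn1 itself stood at 1.96 and 0.738 against 1.36 and 12.6 CPM. Whether the counting used strand is not given in the sources used here. Reads of the pair therefore cannot be assigned with certainty. Adamtsl5, a secreted protein related to ADAMTS proteases but without protease activity, stood at 7.17 and 6.97 CPM against 22.4 and 18.1 CPM. Its relative Adamtsl4 showed 14.1 and 15.4 against 37.6 and 26.5 CPM, also with no overlap.

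Hbegf encodes a membrane-anchored growth factor of the epidermal growth factor (EGF) family that is shed to activate EGF receptors. It was at 36.8 and 28.8 CPM in the MycCaP pair against 86.6 and 89.8 CPM in the MycCaP-BMP4 pair, the second pair within 10%. Other EGF ligands went different ways. Areg, another ligand that macrophages can release, stood at 27.6 and 23.7 against 3.45 and 12.9 CPM, below in both, while Btc stood at 11.0 and 14.2 against 81.2 and 36.1 CPM, above in both but with unequal replicates. Slc15a2, a proton-coupled transporter of small peptides, stood at 60.2 and 50.5 CPM against 171 and 152 CPM. The related Slc15a3, which sits in the endolysosomal membrane, ran lower, at 544 and 410.2 against 166 and 349 CPM.

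Promoter windows are shown for 4 of these and other members to set the widest separation (Tenm4) and the member with the most equal replicates among the RNA-processing genes (Leng8) beside Tfrc and Timp1. Each is the stretch of 250 bases before an annotated start, 5′ to 3′ on the gene's strand, from RefSeq on GRCm38.p6, and all 4 genes lie on the forward strand. Capitals mark matches to the searched letters, on either strand.
Tenm4, chr7:96170994-96171243: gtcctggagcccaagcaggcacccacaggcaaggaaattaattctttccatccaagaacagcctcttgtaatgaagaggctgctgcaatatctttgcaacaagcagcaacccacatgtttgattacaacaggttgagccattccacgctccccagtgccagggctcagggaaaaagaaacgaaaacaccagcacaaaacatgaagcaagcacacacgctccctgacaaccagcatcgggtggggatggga
Leng8, chr7:4136806-4137055: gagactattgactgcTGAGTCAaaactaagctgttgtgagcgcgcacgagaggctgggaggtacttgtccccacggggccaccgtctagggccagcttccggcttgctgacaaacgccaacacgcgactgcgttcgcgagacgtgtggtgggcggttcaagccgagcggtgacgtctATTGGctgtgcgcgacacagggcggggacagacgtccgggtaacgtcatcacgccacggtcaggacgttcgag
Tfrc, chr16:32608646-32608895: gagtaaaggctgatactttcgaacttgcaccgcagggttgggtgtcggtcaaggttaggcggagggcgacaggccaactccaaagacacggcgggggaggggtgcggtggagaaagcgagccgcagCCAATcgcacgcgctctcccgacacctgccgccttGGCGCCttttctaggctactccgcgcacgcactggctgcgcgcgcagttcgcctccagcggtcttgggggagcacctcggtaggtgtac
Timp1, chrX:20869916-20870165: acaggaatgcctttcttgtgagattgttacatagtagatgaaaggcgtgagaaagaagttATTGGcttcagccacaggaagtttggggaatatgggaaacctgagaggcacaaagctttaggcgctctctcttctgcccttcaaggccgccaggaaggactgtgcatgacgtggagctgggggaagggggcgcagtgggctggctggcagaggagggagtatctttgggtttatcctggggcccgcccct
The Leng8 window held an AP-1 motif and a CCAAT box, the Tfrc window a CCAAT box and the GC-rich SMAD motif, the Timp1 window a CCAAT box, and the Tenm4 window none of the searched motifs. The searched motifs, on both strands, were AP-1 (TGANTCA), the cyclic AMP response element (TGACGTCA), the E-box (CACGTG), a GC-rich SMAD motif (GGCGCC), a palindromic SMAD motif (GTCTAGAC), a TATA box (TATAAA) and CCAAT. RefSeq windows matched 19 member genes, with 26 windows in all.

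No searched motif was common to the members. GGCGCC was found in 4 of the 26 windows (15.4%), those of Adamtsl5, Mllt6, Tfrc and Tspan5, beside 9.59% of all 32851 windows of the same length. AP-1 was found in 3 (11.5% against 6.75%), CCAAT in 5 (19.2% against 33.8%), the E-box in 2 (7.69% against 6.02%) and TATAAA in 1 (3.85% against 12.4%). The cyclic AMP response element and the palindromic SMAD motif were in 0 windows, beside 1.55% and 0.167% of all windows. Median GC content was 62.0% over the 19 genes, with a range of 41.2% to 81.6%, and 52.4% over all windows. These are matches of letters and say nothing of binding.

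The next members are the nuclear RNA Neat1, the genes Leng8, Pnisr and Nxf1 for nuclear proteins that act on RNA or are related to such proteins, the nuclear and cytoplasmic enzyme Ogt, and the non-coding Gm12940, which is placed here for its position over Sfpq alone. Neat1 is the long non-coding RNA around which paraspeckles, nuclear bodies that hold RNA and proteins, are built. It stood at 89.0 and 65.9 CPM in the MycCaP pair against 199 and 264 CPM in the MycCaP-BMP4 pair, with replicate 2 the higher. Neat1 lies on chromosome 19 from 5824708 to 5845478 on the reverse strand. The genes of 6 paraspeckle proteins differed less between the groups, with 4 above, 1 below and 1 overlapping on the CPM scale. With TMM factors 2 were above and 1 below. The shares over all tested genes were 34.4% above and 23% below, and 28.9% and 29.7% with TMM factors. Sfpq, a core paraspeckle protein, stood at 292 and 255 against 329 and 329 CPM, and Pspc1, another, at 45.5 and 41.7 against 40.4 and 37.4 CPM.

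Leng8, a protein of a family that also holds an mRNA export factor, was at 23.1 and 28.2 CPM against 90.9 and 92.7 CPM. The MycCaP-BMP4 values were nearly the same in both libraries, with a ratio of 0.980. Pnisr, a serine- and arginine-rich nuclear protein, stood at 41.6 and 35.7 CPM against 107 and 87.6 CPM. Nxf1, the main export receptor that carries mRNA through nuclear pores, stood at 85.6 and 93.0 CPM against 233 and 188 CPM. Its ratio of 1.24 put it just inside the upper limit and its lowest fold of 2.02 just inside the fold limit. Of 6 other tested genes of mRNA export, 4 were above, 1 below and 1 overlapping, beside 34.4% and 23% of all tested genes. Nxt1, the cofactor of Nxf1, was not separated, at 14.1 and 18.8 against 18.1 and 16.2 CPM.

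Ogt, the enzyme that adds O-linked N-acetylglucosamine to nuclear and cytoplasmic proteins, stood at 61.8 and 64.5 CPM against 166 and 147 CPM. The gene of the enzyme that removes this sugar, listed under its older symbol Mgea5, differed less, at 100.2 and 101 against 139.6 and 115 CPM. Gm12940, a processed transcript on chromosome 4 from 127033731 to 127049398, stood at 3.85 and 3.73 CPM against 24.7 and 21.1 CPM, the second-widest separation, with a ratio of means of 6.04. It overlaps Sfpq on the same strand and Zmym1 on the opposite strand, so reads that fall in both could be left uncounted. Zmym1 stood at 2.12 and 3.49 against 7.73 and 8.50 CPM.

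These members stood within a wider set of genes for nuclear RNAs and RNA processing. That set was written from background knowledge after the members were known, so its counts are a description. Of its 26 tested genes that were no members, 20 had both MycCaP-BMP4 libraries above both MycCaP libraries, 2 below and 4 overlapping, beside the 34.4% and 23% of all genes, and with TMM factors 17 were above and 2 below. Their median log2 fold change was 0.30, so most differences were small. Malat1, the abundant nuclear speckle RNA whose gene lies beside Neat1, stood at 242 and 229 against 462 and 489 CPM. Ccnl2, a cyclin of nuclear speckles, stood at 103 and 79.3 against 296 and 219.5 CPM, and Nktr, a speckle cyclophilin, at 47.3 and 63.8 against 114 and 114 CPM. The splicing factor gene Sf3b1 went the other way, at 536 and 536 against 421 and 495 CPM.

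**Figure D3:**
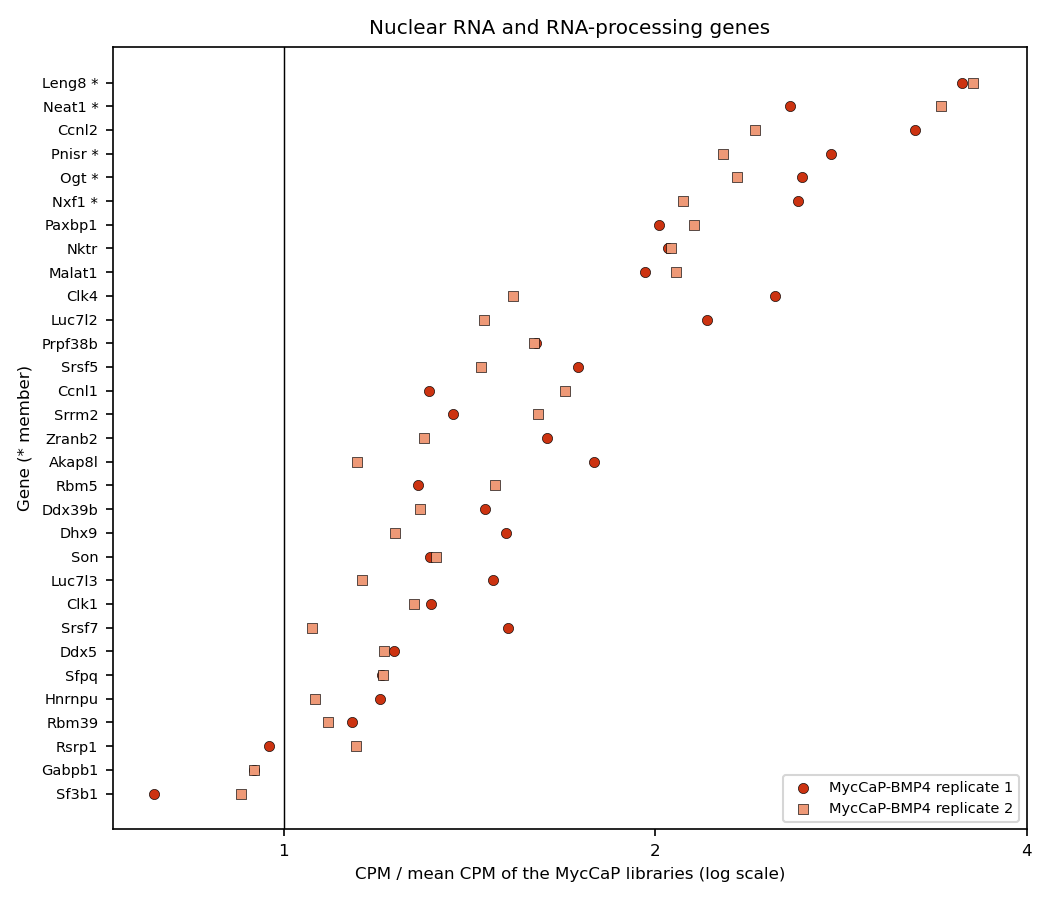
Level of 31 tested genes of nuclear RNAs and RNA processing in each MycCaP-BMP4 library, as CPM over the mean CPM of the MycCaP libraries (log axis), with the members starred. The members Leng8, Neat1, Pnisr, Ogt and Nxf1 are near the top of the set, both points of most genes are above 1, and both points of Sf3b1 and Gabpb1 are below 1.

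A measure of the libraries moved with these nuclear RNA genes. Reads that fell in no annotated gene made up 3.98% and 3.37% of the reads in the MycCaP libraries and 6.01% and 6.03% in the MycCaP-BMP4 libraries, and its part in the result was not tested. The share of members with an annotated transcript that keeps an intron was near that of other genes. Of 23 nuclear protein-coding members, 14 (60.9%) had such a transcript, beside 51.9% of the 285 other raised genes of that kind, 58.9% of all tested and 66.1% of those with at least 10 CPM in both MycCaP-BMP4 libraries. Transcripts annotated for nonsense-mediated decay were listed for 26.1% of these members and 28.5% of all tested. Median exon length was 5225 bases over the members and 4439 over all tested.

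The members of chromatin and zinc finger type were Mllt6, Zbtb43, Zbtb6 and Zfp949, and their ratios of means lay in a narrow range of 2.17 to 2.53. Mllt6, a PHD finger protein that partners a histone methyltransferase, stood at 55.4 and 52.0 CPM against 149 and 123 CPM. Zbtb43, a zinc finger protein with a BTB domain, stood at 16.6 and 16.4 CPM against 38.5 and 34.4 CPM. Its relative Zbtb6 stood at 7.97 and 5.95 CPM against 17.7 and 16.003 CPM and had the smallest lowest fold, 2.01. Zbtb26, which overlaps Zbtb6 on the same strand, stood at 2.92 and 1.93 against 7.20 and 3.95 CPM. Counts of the 2 genes are uncertain where reads fall in both and could be left uncounted. Zfp949, another zinc finger gene, was even in both groups, at 20.7 and 20.6 CPM against 45.7 and 44.1 CPM, and had the lowest fitted log2 fold change of the members, 0.95 (SE 0.25).

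Usp31 and Fbxl18 belong to the ubiquitin system. Usp31, a deubiquitinating enzyme, stood at 16.2 and 19.1 CPM against 42.2 and 39.4 CPM. Fbxl18, an F-box protein that selects substrates for a ubiquitin ligase, stood at 5.29 and 4.84 CPM against 17.0 and 25.02 CPM. It leaned to replicate 2, with a ratio of 0.679, next to Tfrc at the low end.

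Members in signalling and cell structure were Mras, Prkab2, Mapk1ip1, Epb41l1, Tspan5 and Wfs1. Mras, a small GTPase close to R-Ras that helps to activate RAF kinases, stood at 6.81 and 12.3 CPM against 30.8 and 25.3 CPM. Its relative Rras2 stood at 11.2 and 12.2 against 46.9 and 31.7 CPM, also without overlap, and Rras overlapped at 31.0 and 28.7 against 36.6 and 29.9 CPM. Prkab2, a beta subunit of the energy sensor AMPK, stood at 13.8 and 11.5 CPM against 46.6 and 37.9 CPM. Of 5 other tested AMPK subunit genes, 3 were above both MycCaP libraries and 2 overlapped, where 34.4% of all tested genes were above. The alternative beta subunit Prkab1 was among those that overlapped, at 26.6 and 32.1 against 37.5 and 29.8 CPM.

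Epb41l1, a cytoskeletal linker of the protein 4.1 family, stood at 36.6 and 36.7 CPM against 96.6 and 86.5 CPM. Its 3 tested relatives did not follow, with 2 below and 1 overlapping, where 23% of all tested genes were below. Wfs1, a membrane protein of the endoplasmic reticulum, stood at 7.21 and 7.91 CPM against 26.5 and 23.5 CPM. Tspan5, a tetraspanin that guides the protease ADAM10 to the cell surface, stood at 7.37 and 9.27 CPM against 19.99 and 21.6 CPM. Tspan14, another tetraspanin of that group and more abundant here, was lower in MycCaP-BMP4 TAMs, at 109.7 and 116 against 61.2 and 93.6 CPM. Mapk1ip1 stood at 5.33 and 4.80 CPM against 13.3 and 11.2 CPM, and Ppp2r2d, which overlaps it on the opposite strand, at 48.5 and 50.4 against 66.4 and 49.6 CPM.

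The mitochondrial genome gave mt-Nd2 and mt-Nd4, which encode subunits of respiratory complex I. They were the most abundant members, and their MycCaP replicates were far apart. mt-Nd4 stood at 111 and 805 CPM in the MycCaP pair against 2269 and 1962 CPM in the MycCaP-BMP4 pair. mt-Nd2 stood at 257 and 1106 CPM against 2699 and 2434 CPM. MycCaP replicate 1 was the low library for both, and the SE of their log2 fold changes was correspondingly wide (2.07, SE 0.90, and 1.77, SE 0.73).

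Of 10 other tested mitochondrial protein genes, 8 had both MycCaP-BMP4 libraries above both MycCaP libraries and 2 overlapped (6 above with TMM factors). The shares over all tested genes were 34.4% above and 23% below. The abundant mt-Nd1, mt-Nd5, mt-Nd6, mt-Co1 and mt-Cytb were all above. The rest were at or below 37.9 CPM in all libraries. Of these, mt-Nd3 was barely above, at 0.441 and 0.246 against 0.452 and 0.520 CPM, and mt-Atp6 at 5.93 and 4.18 against 12.2 and 6.03 CPM. MycCaP replicate 1 was the lower MycCaP library for mt-Nd1, mt-Nd5, mt-Nd6, mt-Co1 and mt-Cytb and the higher one for mt-Nd3, mt-Atp6, mt-Atp8, mt-Co2 and mt-Co3. mt-Nd1 fell just short of the fold limit, with a lowest fold of 1.99 and levels of 704 and 1877 against 3941 and 3730.2 CPM. mt-Cytb, a subunit of complex III, stood at 833 and 3237 against 7622 and 6326 CPM. mt-Co2 was counted at a far lower level and overlapped, at 12.4 and 6.44 against 8.35 and 12.3 CPM. The nuclear genome holds near-identical copies of parts of the mitochondrial genome. Counts of these genes are uncertain where reads align to both and could be left uncounted. All mitochondrial genes together took 0.671% and 1.63% of the gene counts in the MycCaP libraries and 3.28% and 2.85% in the MycCaP-BMP4 libraries.

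**Figure D4:**
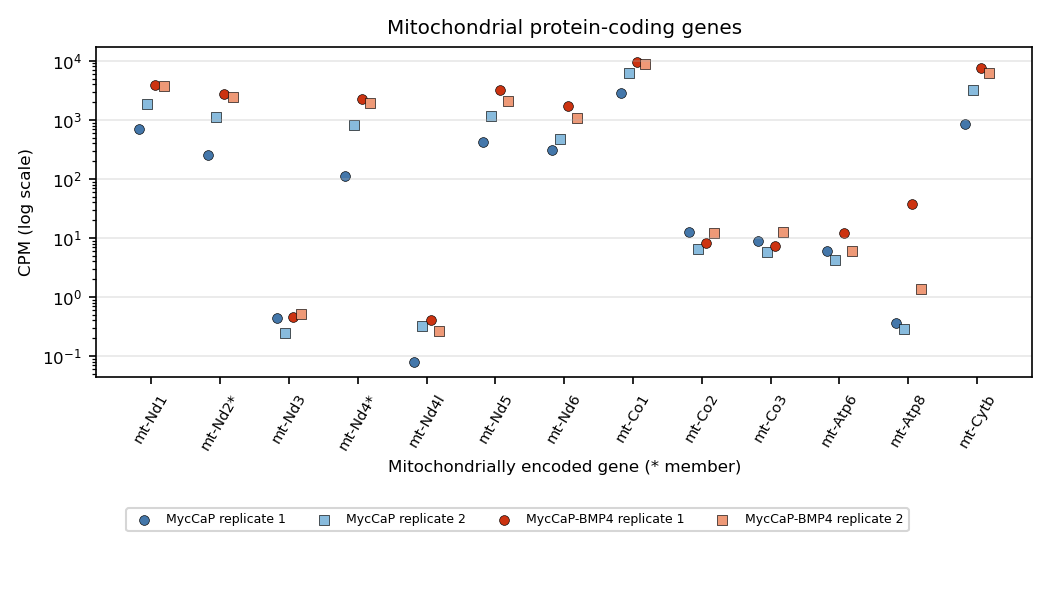
CPM (log axis) of the 13 protein-coding mitochondrial genes in the 4 libraries, with the members starred. For mt-Nd1, mt-Nd2, mt-Nd4, mt-Nd5, mt-Nd6, mt-Co1 and mt-Cytb the order is MycCaP replicate 1, then replicate 2, then both MycCaP-BMP4 libraries, while mt-Co2 and mt-Co3 overlap.

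Ighg1 and Tpsab1 are best known from other leukocytes. Ighg1 encodes the constant region of the IgG1 heavy chain, made by switched B and plasma cells. It stood at 6.73 and 14.7 CPM in the MycCaP pair against 55.1 and 51.7 CPM in the MycCaP-BMP4 pair. The remaining immunoglobulin genes mostly ran the other way. Of 6 others tested, 4 were below and 1 above, beside 23% and 34.4% of all tested genes. Ighm, the IgM heavy chain, stood at 90.7 and 127 against 37.8 and 67.2 CPM, and the kappa light chain Igkc at 10.9 and 17.3 against 23.03 and 19.9 CPM. Reads that align to several near-identical heavy chain genes could be left uncounted, which makes the Ighg1 counts uncertain.

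Most markers of B and plasma cells were not higher along with Ighg1. Of 11 tested genes on that list, 2 were above both MycCaP libraries, 7 below and 2 overlapping, beside 34.4% above and 23% below over all tested genes. The list summed to 155 and 208 CPM against 193 and 175 CPM. On it, Sdc1 was above, at 24.4 and 30.1 against 121 and 71.6 CPM. The plasma cell gene Mzb1 stood at 0.921 and 0.451 against 0 and 0.130 CPM. Of the genes matched on the list, 0 were at 0 in all 4 libraries.

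Tpsab1 encodes tryptase, a serine protease of mast cell granules. It stood at 0.921 and 6.73 CPM against 13.7 and 20.1 CPM and had the largest relative gap between MycCaP replicates of all members, with replicate 1 the low one. Further mast cell protease genes had the same order of libraries: Tpsb2 stood at 0.841 and 4.22 against 5.92 and 9.11 CPM and Cpa3 at 0.841 and 2.67 against 5.22 and 9.58 CPM. Tpsb2 is a near copy of Tpsab1, so reads that align to both could be left out of the counts of each. Mcpt4 and Cma1 were also above in both MycCaP-BMP4 libraries.

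The mast cell and basophil list without Tpsab1 summed to 10.7 and 22.5 CPM in the MycCaP pair against 34.3 and 47.7 CPM in the MycCaP-BMP4 pair. Of its 9 tested genes 5 were above, 1 below and 3 overlapping, beside 34.4% above and 23% below over all tested genes. The receptor gene Kit on that list was below, at 3.60 and 4.76 against 2.10 and 2.26 CPM. The receptor gene Fcer1a stood at 0.0401 and 0.369 against 0.165 and 0.0867 CPM. It had too few counts to be tested, with values on both sides of the floor of 3 counts. The part of these cells in the levels of Ighg1 and Tpsab1 was not tested.

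The remaining 3 members are a long intergenic RNA and 2 identifiers that no table at hand pairs with a symbol or position. Gm26532 stood at 7.17 and 4.101 CPM against 16.4 and 23.3 CPM. It lies on chromosome 8 from 84208920 to 84209609, on the same strand as the microRNA genes Mir23a, Mir27a and Mir24-2, whose mature microRNAs end before its start, and it overlaps the annotated Mir24-2 gene. ENSMUSG00000089788 stood at 4.73 and 5.25 CPM against 21.7 and 19.5 CPM, with a lowest fold of 3.71, the third among the members. ENSMUSG00000098148 stood at 5.05 and 4.35 CPM against 12.1 and 11.0 CPM.

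Mature microRNAs are not captured by libraries of polyadenylated RNA. Those encoded beside Gm26532, inside Tenm4 and inside Mllt6 were not measured. RefSeq sequences, 5′ to 3′ with the seed (bases 2 to 8) in capitals, are given for 4 of them. The other arms, miR-6394 inside Tenm4 and the microRNAs of Mir6927 inside Mllt6 are left out.
mmu-miR-24-3p, ending 24 bases before Gm26532: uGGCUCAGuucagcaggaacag
mmu-miR-27a-3p, ending 173 bases before Gm26532: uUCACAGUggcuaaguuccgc
mmu-miR-23a-3p, ending 337 bases before Gm26532: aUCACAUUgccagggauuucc
mmu-miR-708-5p, inside Tenm4 at chr7:96249450-96249472: aAGGAGCUuacaaucuagcuggg
The 4 seeds all differ.

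Levels set per kilobase of exon put the members in another order than CPM. After mt-Nd2 and mt-Nd4, the highest in the MycCaP-BMP4 libraries were Tfrc at 40.7 and 64.6 CPM per kb, Nxf1 at 52.7 and 42.5, and Timp1 at 36.2 and 50.3. The replicate values of these 3 genes overlap, so their order is not separated. Neat1, long and unspliced, came to 9.58 and 12.7 CPM per kb. Fbxl18 and Tenm4 were the lowest, with Fbxl18 at 1.31 and 1.94.

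The 29 members with a known position lay on 16 chromosomes, the mitochondrial genome counted as 1, and did not cluster. Chromosome 7 held 4 and chromosome 2 held 3. No 2 nuclear members lay within 500 kb of each other, and the closest pair, Neat1 and Nxf1, was 2911595 bases apart. Of the 29, 25 are annotated as protein coding, and Ighg1 as an immunoglobulin constant gene.

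Some members belonged to the 42 lists of genes of known pathways and cell types used here. They were Tpsab1, Timp1, Tfrc, Hbegf, mt-Nd2 and mt-Nd4. The share of all tested genes on these lists was not counted, and the B and plasma cell list does not name Ighg1. None of the 16 tested BMP target genes was a member, but only 31 of all 14075 tested genes were, so this says little. Of the 16, 10 had both MycCaP-BMP4 libraries above both MycCaP libraries and 2 below, beside 34.4% and 23% of all tested genes. The median replicate ratio of the BMP targets was 2.21. Of the 14 with at least 1 CPM in both libraries, 1 lay in the ratio range of the rule. That share was 47.0% among all tested genes with at least 10 CPM in both. The medians of the tumour epithelium list (2.34), the Wnt list (2.30) and the list of MYC targets and ribosome biogenesis (1.95) were also above the range. The pan-macrophage list had a median of 0.318, with 0 of 15 genes inside the range.

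**Figure D5:**
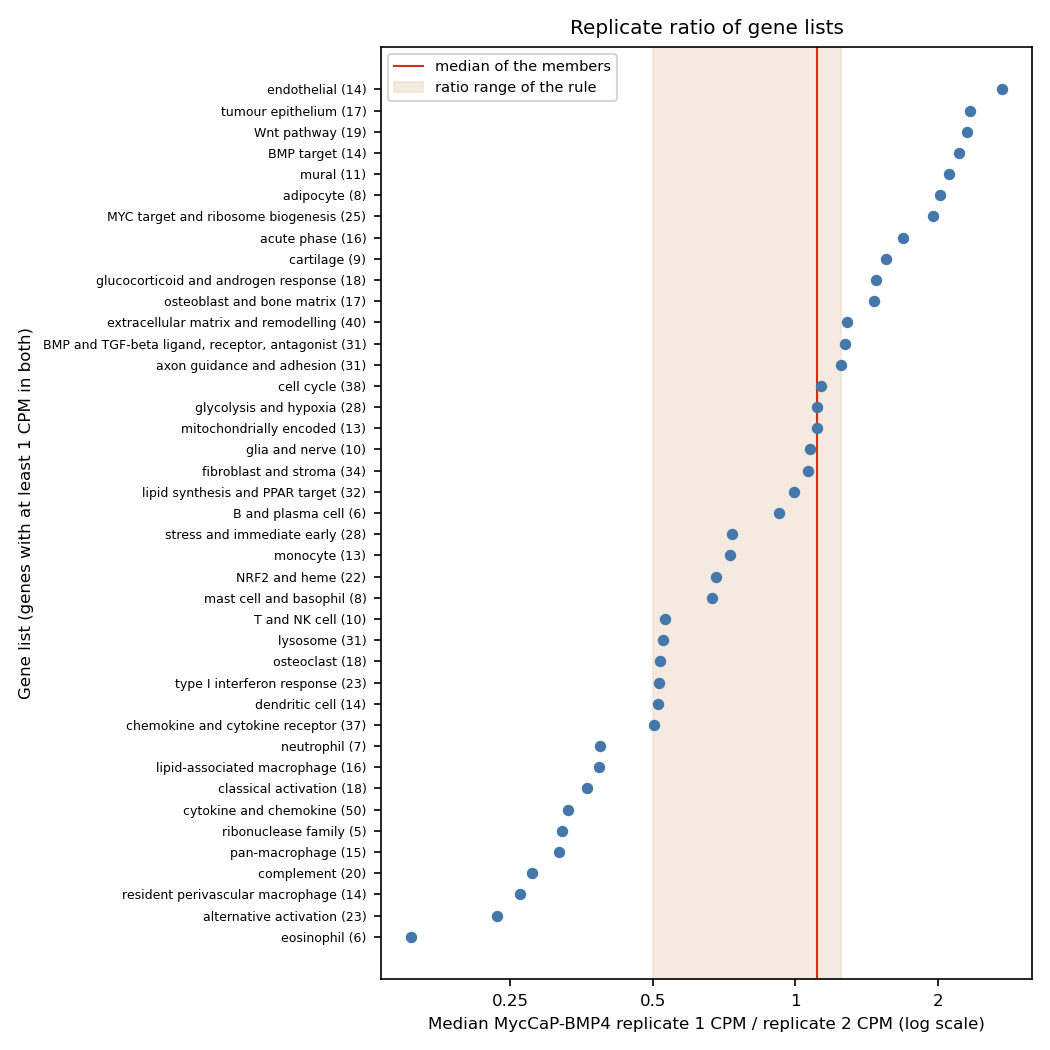
Median CPM ratio of MycCaP-BMP4 replicate 1 over replicate 2 (log axis) for each gene list, over genes with at least 1 CPM in both libraries (number in brackets). The list of skeletal muscle, with 2 such genes, is left out, the line is the median of the members at 1.11, and the band is the range of the rule, to the left of which lies the pan-macrophage list at 0.318 and to the right the tumour epithelium list at 2.34.

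Some lists had medians near that of the members. They were glycolysis and hypoxia at 1.11, cell cycle at 1.13, glia and nerve at 1.08 and fibroblast and stroma at 1.06. In that order, 11 of 28, 28 of 38, 3 of 10 and 13 of 34 of their genes lay in the ratio range. These are genes with at least 1 CPM in both MycCaP-BMP4 libraries. Among all tested genes with at least 10 CPM in both, the share in the range was 47.0%. The mitochondrially encoded genes had a median of 1.11 with the members mt-Nd2 and mt-Nd4 and 1.09 without them. Of the 41 tested genes on the whole fibroblast and stroma list, 7 were above, 8 below and 26 overlapping. Col1a1, a fibrillar collagen of fibroblasts, had MycCaP-BMP4 values of 94.4 and 94.3 CPM, but its MycCaP values of 52.0 and 126 CPM lay on either side of them. Of 38 tested cell cycle genes, 3 were above and 22 below. The shares over all tested genes were 34.4% above and 23% below.

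Several genes lay close to the limits of the rule. Beyond the fold limit were Nt5dc3 at 1.99, mt-Nd1 at 1.99 and Sphk1 at 1.98, while the members nearest to it were Zbtb6 at 2.01, Nxf1 at 2.02 and Tpsab1 at 2.04. Beyond the upper ratio limit were Dcbld2 at 1.27, Homer1 at 1.28 and Cspg4 at 1.32, with Nxf1 at 1.24, Adamtsl5 at 1.23 and Prkab2 at 1.23 inside. Gprc5b, Sh3bgrl2 and Xrcc3 met the other limits but not that of 10 CPM, with lower MycCaP-BMP4 values of 9.41, 9.41 and 8.15 CPM. Just inside it were ENSMUSG00000098148 at 11.0, Mapk1ip1 at 11.2 and Tpsab1 at 13.7 CPM. No raised gene fell below the lower ratio limit, where Tfrc, Fbxl18 and Tpsab1 at 0.684 were the lowest, and no further gene met the other limits without the MycCaP minimum of 1 CPM.

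Membership changed with the scaling of the libraries. Scaled on the median of the 15 macrophage genes instead of the gene total, a scaling chosen after seeing the data, 37 genes met the limits and 0 of the 31 members were among them. With TMM factors 23 genes met the limits, 18 of them members, and Neat1, Hbegf, Nxf1, Pnisr and Tpsab1 were among the 13 members lost. Leaving out the mitochondrial genes, from the members as from the totals, removed mt-Nd2 and mt-Nd4 by design. The other 29 members stayed, and Nt5dc3 and Sphk1 were gained. The members other than mt-Nd2 and mt-Nd4 together took 717 and 711 CPM in the MycCaP libraries and 2069 and 2142 CPM in the MycCaP-BMP4 libraries.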

How the data were processed

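Polyadenylated RNA was sequenced in 4 libraries, 2 per group, from RNA with an integrity number above 7, with a directional kit and paired reads, per the labels' protocols. The authors deposited whole-number counts of reads for each gene. The submitters' processing notes name HTSeq, STAR 2.6.0b, Bowtie2 2.2.3, RSEM and the GRCm38 build. What each did, which annotation was used and whether strand was counted is not given in the sources used here.

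Summary lines of the files with no gene were dropped: reads in no gene were 3.37% to 6.03% of a library and reads aligned to several places 8.01% to 10.6%. CPM used the sum of gene counts. Genes left by filterByExpr were fitted with edgeR 4.0.16 (R 4.3.3), TMM factors and no covariate. DESeq2 1.42.0, limma-voom (limma 3.58.1), other scalings, other limits of the rule and each library left out were the alternatives. The test was checked on simulated counts with a smaller spread between replicates than the one fitted here. That check does not show the power of the test in these libraries. Symbols (37607 of 39179 identifiers) and coordinates came from GENCODE M21, sequences from RefSeq. All members are named, with the 3 genes on each side of each limit, and other genes as members of a list or family, or as markers or neighbours of a member. The members and lists were chosen with earlier results of these data known, and the families around the members after the members were seen. In the text "above" and "below" mean that both MycCaP-BMP4 libraries lay above or below both MycCaP libraries. A further gene that met the limits is not reported here.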

Additional observations from a re-analysis of the deposited data

How the results depend on the processing

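The number of genes called by edgeR, 0, was also 0 with DESeq2's size factors, with a filter of 1 CPM in 2 libraries and in limma-voom. It was 65 with library size alone, 1109 with no filter on low counts, 1385 in DESeq2 and, chosen after seeing the data, 1091 with scaling on macrophage genes. Leaving out each library gave 0 to 5753 calls, with 1043 without MycCaP-BMP4 replicate 1 and 5753 without MycCaP-BMP4 replicate 2. In those fits the lone sample is assumed to vary like the other group. The labels do not say what the replicate numbers share. Same-numbered libraries correlated at −0.13 in their deviations from the group means across 14075 genes. With the replicate block 2 genes were called, and with the numbers crossed, added after seeing the data, 689. The number of members, 31, was 113 at a fold limit of 1.5 and 6 at a limit of 3. Leaving out each MycCaP library gave 36 to 78, the latter without MycCaP replicate 2. It moved to between 21 and 41 under the other scalings and limits. The members' median log2 fold change, 1.39, was 1.55 with library size alone and 3.04 with macrophage scaling, where the median of all tested genes was 0.14 and 1.62. Leaving out each library gave 1.27 to 1.38. The median replicate ratio, 1.11, was 0.963 with TMM factors and 0.989 with DESeq2's size factors. The cause of these differences was not tested. With 2 libraries a group, the number of samples limits the precision.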
